A study of Cavia porcellus with 24 samples.

Results

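Abcg1 (ENSCPOG00000015194) and Mylip (ENSCPOG00000002917) are 2 of the 18149 genes measured in RNA of the guinea pig carotid endothelium, which was collected by flushing the vessel with a lysis reagent. They were taken by identifier and were chosen by their differences between diets in earlier results of the same animals, so their diet differences are given as a description with no test. A total of 24 animals, 3 in each of 8 groups, cross the ration of the F0 dams, the generation, and the chow each animal itself ate. Dams of the PC arm ate ad libitum, and dams of the PR arm received 70% of that ration until day 34 of gestation and 90% afterwards, through lactation. F1 offspring on control chow formed PC-C and PR-C, and those on the high fat diet (HFD) formed PC-H and PR-H. The F2 animals, born to F1 females kept on control chow, formed PC-C-C and PR-C-C on control chow and PC-C-H and PR-C-H on HFD. The HFD was the control chow with 0.25% cholesterol, 15% pork fat and 2.5% fructose added, and was fed from 8 weeks of age for 12 weeks, so that all animals were studied at 20 weeks. All were Hartley guinea pigs of both sexes with no engineered allele. Among animals of known sex, PC-C and PR-H held males only, and each other group held 1 female. Each library is 1 animal, whose litter the labels do not give. In each arm and generation the study lists fewer dams than animals sequenced, with 2 F1 dams in the PC arm, so some animals share a mother. The p-values measure the spread between these animals as if they were independent.

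Cells that take up cholesterol in excess convert part of it to oxysterols, which activate the liver X receptors (LXR). Abcg1 encodes a membrane transporter that moves cholesterol out of the cell to high density lipoprotein particles. Mylip, also known as Idol, encodes an E3 ubiquitin ligase that marks the LDL receptor for degradation and so limits uptake. Both are well known LXR target genes, as are Srebf1, which encodes the transcription factor that drives fatty acid synthesis genes, and Scd1, a fatty acid desaturase.

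Reads per library ranged from 14061522 to 31148123. The values below are normalized counts, that is reads per gene divided by 1 size factor per library. Counts are not divided by gene length, so levels are compared between animals and not between the genes. The study describes a single PC-C-H sample as not of good quality without giving its number. Animal 51 of that group is absent from the study's list of animals and was left out of the tests, which leaves 2 animals in that group and 23 in all. For PC-H animal 34 the study's list records a mixed diet for part of the study. In bulk RNA, fewer cells expressing a gene and less of its RNA per cell cannot be told apart. Of 14 endothelial marker symbols looked for, 2 could be paired with an identifier, Tm4sf18 (50.3 to 375 normalized counts over the 23 animals) and Meox2 (256 to 1347), so the labelled cell type could be checked only in part. Both were above 0 in each animal, and both names came from the genes that the study lists as changed between PC-C and PC-H. Libraries PC-C-C 54 and 55, all 3 of PR-C-C and animal 51 stood apart from the other 18 in 302 genes that differed between PR-C and PR-C-C, which include neither Abcg1 nor Mylip. That comparison chose the genes, so the place of PR-C-C apart from PR-C was fixed by the choice.

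On control chow, Abcg1 was low and uneven. In PC-C it had 202 normalized counts in animal 13, 65.5 in animal 27 and 381 in animal 28. In PR-C it had 658 in animal 17, 87.3 in animal 25 and 375 in animal 36. Animals 27 and 25 were the lowest of all, 1 in each F0 arm, and PR-C animal 17 was the highest on this diet. The F2 animals lay between them, with 157, 360.3 and 223 in PC-C-C animals 52, 54 and 55. PR-C-C animals 41, 47 and 58 had 199, 278 and 203. Over the 12 control animals the median was 213, and the highest value was 10.03 times the lowest. The lowest value rests on 68 reads, for which counting error alone gives a coefficient of variation of 12.1%, so counting covers only a small part of this range.

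On HFD the same gene was above the control range in each animal and spanned a 2.56-fold range. PC-H animals 11, 21 and 34 had 2318, 2399 and 1277 normalized counts. PR-H animals 16, 23 and 31 had 3268, 2714 and 2870. The lowest value was that of animal 34, the animal with the mixed diet and the only female among the F1 animals on HFD. In F2, PC-C-H animals 50 and 53 had 2292 and 2500, and PR-C-H animals 43, 46 and 59 had 2375, 3114 and 2908. The lowest HFD value was 1.94 times the highest control value, so the diets did not overlap. Abcg1 and Mylip were both chosen by their diet difference, so such a gap is no independent result. The share of all genes with such a gap was not counted.

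Mylip also lay apart between the diets, within a narrower range. Control animals had 592, 340.3 and 659 normalized counts in PC-C (animals 13, 27 and 28) and 632, 386 and 576 in PR-C (animals 17, 25 and 36). In F2 they had 425, 504 and 439 in PC-C-C (animals 52, 54 and 55) and 422, 572 and 378 in PR-C-C (animals 41, 47 and 58). Animal 27, the lowest for Abcg1, was the lowest for Mylip too, and the highest control value was 1.94 times the lowest. On HFD, Mylip had 1615, 1505 and 1363 in PC-H (animals 11, 21 and 34) and 1371, 1336 and 1674 in PR-H (animals 16, 23 and 31). In F2 it had 1376 and 1495 in PC-C-H (animals 50 and 53) and 1513, 1852 and 1629 in PR-C-H (animals 43, 46 and 59). The 11 HFD animals thus spanned a 1.39-fold range, and the lowest was 2.03 times the highest control animal. Animal 34 was not set apart in Mylip: PR-H animal 23 was lower.

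**Figure D1:**
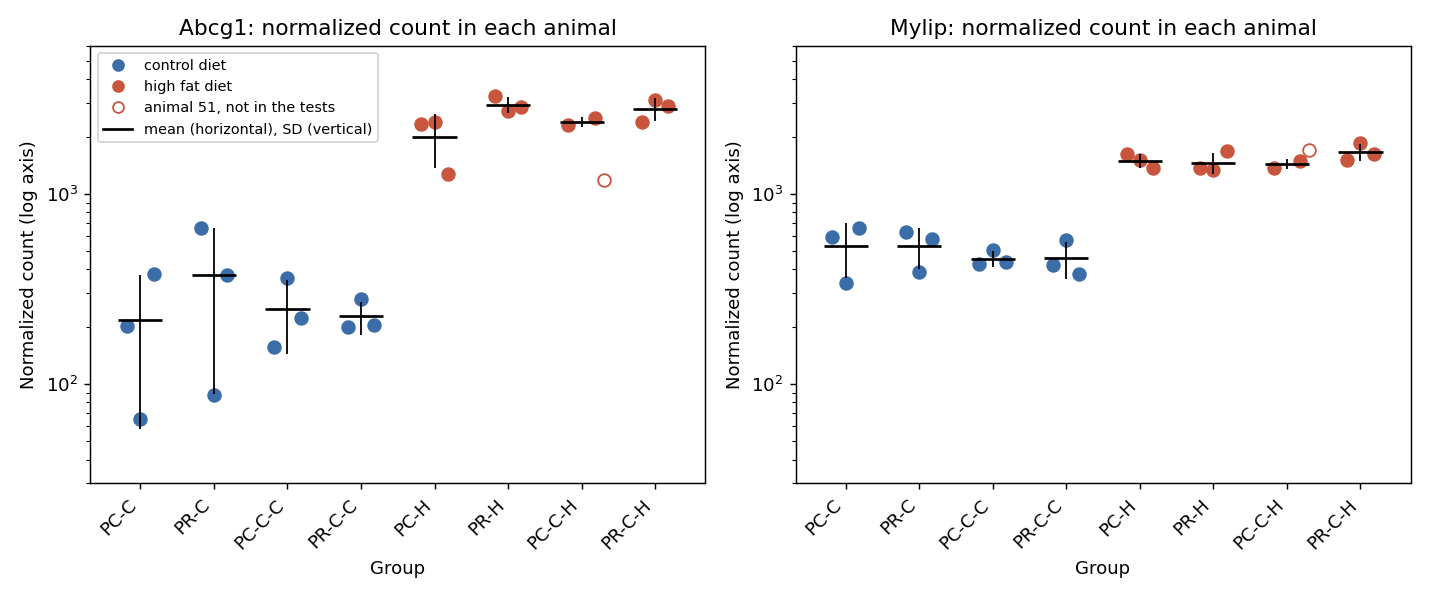
Normalized counts (log axis) of Abcg1 (left) and Mylip (right) in each animal of the 8 groups, with the group mean as a horizontal line and the SD as a vertical line; the open point is PC-C-H animal 51, which is in neither the mean nor the tests. Control animals (blue) lie between 65.5 and 658 for Abcg1 and between 340.3 and 659 for Mylip, below all HFD animals (red) in both panels.

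Ordered by the mean of log2(normalized count + 1), the 4 control groups were below the 4 HFD groups for both genes. For Abcg1 the order was PC-C, PR-C-C, PC-C-C, PR-C, PC-H, PC-C-H, PR-C-H and PR-H. The step from PR-C to PC-H was 2.78 on the log2 scale, or 3.54 times the within-group SD pooled over the 8 groups. Every other step between neighbours was at most 0.38, under 1 SD, and the ranges of the neighbours overlapped. For Mylip the order was PR-C-C, PC-C-C, PC-C, PR-C, PC-C-H, PR-H, PC-H and PR-C-H. The step from PR-C to PC-C-H was 1.46, or 5.23 SD, and all other neighbours overlapped, with steps of at most 0.17. The order of neighbouring groups within a diet was thus not resolved for either gene. Some groups farther apart did not overlap. For Abcg1 all PR-H animals (2714 to 3268 normalized counts) were above those of PC-H (1277 to 2399) and PC-C-H (2292 to 2500). For Mylip all PR-C-H animals (1513 to 1852) were above those of PC-C-H (1376 to 1495). PC-C-H held 2 animals here, and animal 51, left out of that group, had 1711 for Mylip, within the PR-C-H range. These pairs were seen in the values and were not tested. The share of all genes with such pairs was not counted.

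The diet response of Abcg1 was the larger of both in all 4 arms. In limma, a linear model fitted to log2(normalized count + 1) of all genes, the log2 difference of HFD minus control for Abcg1 was 3.48 in F1 PC, 3.40 in F1 PR, 3.36 in F2 PC and 3.63 in F2 PR, with standard errors of 0.56 to 0.63. The mean of the arms was 3.46 (standard error 0.29), an 11.04-fold difference. For Mylip the differences were 1.55, 1.48, 1.65 and 1.88 in the same order, with standard errors of 0.22 to 0.25. Their mean was 1.64 (standard error 0.11), a 3.12-fold difference. On the log2 scale the Mylip response was 0.473 of that of Abcg1 on average and 0.436 to 0.518 in the arms. The response of Abcg1 exceeded that of Mylip by 1.93, 1.91, 1.70 and 1.75 in the 4 arms, and by 1.82 on average (standard error 0.23). Relative to the within-group SD pooled over the 8 groups the order was turned around, with 5.86 SD for Mylip and 4.41 SD for Abcg1. That SD is set mainly by the control animals. Within control groups it was 1.04 for Abcg1 and 0.359 for Mylip, and within HFD groups 0.305 and 0.144. The order by SD thus rests on the control spread and is a description only. PR-C animal 25 had the largest influence: without it the F1 PR response of Abcg1 was 2.56 and its excess over Mylip was 1.30.

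Markers of the vessel wall were also higher on HFD. The summed level of the 2 paired smooth muscle and fibroblast genes of 14 symbols, Scx and Olfml2b, had a median of 1575 normalized counts on control chow (1217 to 3037) and 3279 on HFD (2309 to 5319), and the diets overlapped. Scx, a transcription factor of tendon and matrix-forming cells, had medians of 716 and 1455, and Olfml2b, a gene of the extracellular matrix, 876 and 1518. The 2 paired endothelial genes were higher too, with medians of 121 and 201 for Tm4sf18 and 663 and 870 for Meox2, and their sum was 821 and 1040. All 4 names came from genes that the study lists as changed between PC-C and PC-H, so their direction with diet is not independent. Within a diet, r of Abcg1 with Scx was -0.13 on control chow and 0.0077 on HFD, and with Olfml2b -0.20 and 0.36. With Tm4sf18 it was 0.43 and -0.0058, and with Meox2 0.20 and -0.19. For Mylip, r was 0.047 and -0.32 with Scx, and -0.29 and 0.28 with Olfml2b. It was 0.096 and 0.25 with Tm4sf18, and -0.17 and -0.38 with Meox2. The part of these cells in the diet differences of Abcg1 and Mylip was not tested.

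**Figure D2:**
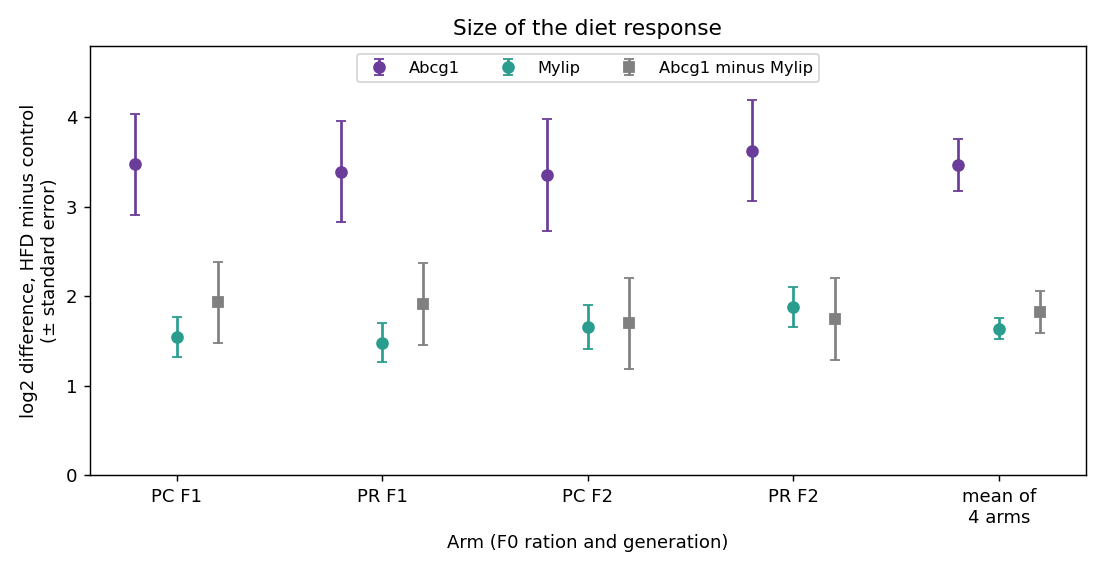
log2 difference of HFD minus control (± standard error, from limma) in each arm of F0 ration and generation and for their mean, for Abcg1, Mylip and the difference of both. Abcg1 lies between 3.36 and 3.63 in the arms and Mylip between 1.48 and 1.88, with the difference between 1.70 and 1.93; these contrasts chose the genes, so no test is given.

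Whether the ration of the F0 dams or the generation changed either gene, or its diet response, was asked with 6 factorial contrasts. These contrasts were not used to select the genes, except that genes with a diet difference in several arms are less likely to show a large interaction with diet. Neither Abcg1 nor Mylip was differentially expressed in any of the 6 (limma, adjusted p of at least 0.637 over 13224 genes). Averaged over generation and diet, PR animals had a log2 difference from PC animals of 0.37 for Abcg1 (95% interval -0.24 to 0.97, adjusted p = 0.810) and 0.05 for Mylip (-0.19 to 0.28, adjusted p = 0.950). For F2 minus F1 the difference was 0.09 for Abcg1 (-0.51 to 0.69, adjusted p = 0.895) and -0.06 for Mylip (-0.30 to 0.18, adjusted p = 0.812). The interaction of ration and generation was -0.57 for Abcg1 (-1.78 to 0.63) and 0.10 for Mylip (-0.37 to 0.57), with adjusted p = 0.810 and 0.923. The intervals of Mylip were the narrower in each contrast. Single control animals moved both Abcg1 values: the ration difference was 0.19 without PC-C animal 27 and 0.57 without PR-C animal 25 (limma, unadjusted p = 0.0215, adjusted p = 0.575), and the interaction was -0.23 and -0.99 (unadjusted p = 0.0439, adjusted p = 0.490, for the latter).

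The diet response in PR minus that in PC was 0.10 for Abcg1 (95% interval -1.11 to 1.30, adjusted p = 0.979, limma) and 0.08 for Mylip (-0.39 to 0.55, adjusted p = 0.952). The response in F2 minus that in F1 was 0.06 for Abcg1 (-1.15 to 1.26, adjusted p = 0.977) and 0.25 for Mylip (-0.22 to 0.73, adjusted p = 0.637). The 3-way interaction was 0.35 for Abcg1 (-2.06 to 2.77) and 0.29 for Mylip (-0.65 to 1.23), both with adjusted p = 0.991. For Abcg1 these intervals hold log2 differences of more than 1 in either direction, so no change was resolved rather than none shown. Among all 13224 genes, limma called 0% for ration, ration by generation, diet by ration and the 3-way interaction, with 935, 829, 671 and 468 genes at an unadjusted p under 0.05. It called 0.839% (111 genes) for generation and 1.02% (135 genes) for diet by generation. For the contrasts at 0%, DESeq2 called 126, 13, 11 and 8 genes in that order and edgeR called 0 in each.

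**Figure D3:**
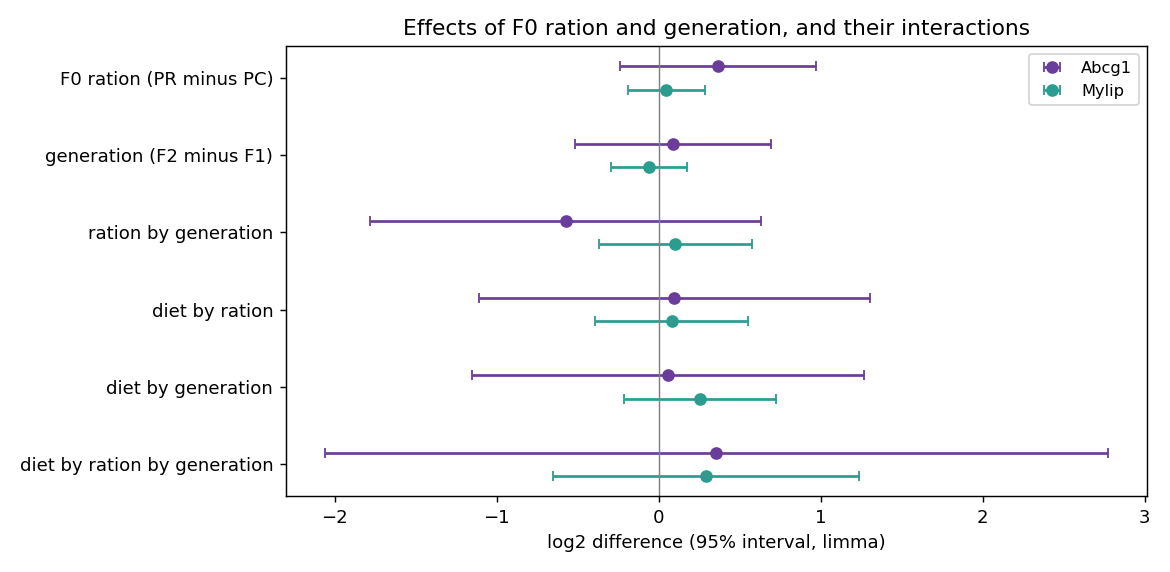
log2 differences with 95% intervals (limma, 23 animals) for the 6 contrasts of F0 ration and generation and their interactions with diet, for Abcg1 and Mylip. All 12 intervals include 0, and those of Abcg1 are the wider in each contrast.

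Between single groups the largest differences of Abcg1 outside diet were from PC-C to PR-C, 0.69 (95% interval -0.48 to 1.87), and from PC-H to PR-H, 0.61 (-0.56 to 1.78). Both intervals include 0, and all intervals here rest on 1 SD for the 8 groups. Within HFD groups the SD was 0.305 for Abcg1 and 0.144 for Mylip, and within control groups 1.04 and 0.359. Intervals between HFD groups are thus wider than the HFD spread alone would give. Those between control groups are narrower than the pooled control spread would give. The first difference fell to 0.01 without PC-C animal 27 and was 1.53 without PR-C animal 25. The second fell to 0.32 without PC-H animal 34, the female with the mixed diet. For Mylip the largest were from PC-C-H to PR-C-H, 0.21 (-0.30 to 0.72), and from PR-C to PR-C-C, -0.21 (-0.67 to 0.25). The second sets groups on opposite sides of the division of the libraries named above, so that for PR-C and PR-C-C generation and division cannot be told apart within the groups.

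The spread between animals of a group was the larger for Abcg1. Its residual SD over the 8 groups was 0.785 on the log2 scale, larger than that of 86.7% of the 13224 genes, whereas that of Mylip was 0.280, near the median gene (0.297). The SD of Abcg1 exceeded that of Mylip in 6 of the 8 groups. Within control groups the SD was 1.04 for Abcg1 and 0.359 for Mylip, and within HFD groups it was 0.305 and 0.144. The SDs on control chow were thus 3.40 and 2.50 times those on HFD, but the permutation tests of this difference did not pass the threshold. The control SD of Abcg1 came mainly from F1, with 1.276 in PC-C and 1.496 in PR-C. It was 0.5978 in PC-C-C and 0.2704 in PR-C-C, the latter below the 0.5111 of PC-H. For Mylip it was 0.5106 in PC-C, 0.377 in PR-C, 0.1291 in PC-C-C and 0.3085 in PR-C-C. On HFD it reached 0.178 (PR-H), above PC-C-C. The difference between diets was not tested within a generation. The mean absolute deviation from the group median of Abcg1 was 0.591 in control and 0.154 in HFD animals (two-sided permutation p = 0.0560, adjusted over 4 tests 0.112), and for Mylip it was 0.208 and 0.0893 (p = 0.176, adjusted 0.234). Abcg1 minus Mylip was 0.383 in control animals (two-sided permutation p = 0.0204, adjusted 0.0814) and 0.0646 in HFD animals (p = 0.509, adjusted 0.509). Animal 34 carried the latter, which was -0.00068 without it, and without it the difference of Abcg1 between diets was -0.51 (adjusted p = 0.0419, permutation).

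Animals with more Abcg1 than their group mates had more Mylip too, on control chow. Over the 12 control animals the 2 genes were related with Pearson's r = 0.830 (two-sided permutation p = 0.00055, adjusted over 10 relations 0.0055) and Spearman's rho = 0.811 (permutation p = 0.00233, adjusted 0.0233). Without the 2 animals farthest from the median of Abcg1, PC-C 27 and PR-C 17, r was 0.724 (permutation p = 0.0155, n = 10). Without the 2 lowest, PC-C 27 and PR-C 25, which were singled out after the values were seen, r was 0.718 (permutation p = 0.0189, n = 10) and the adjusted p was 0.0944, so the size of r was kept and the call was not. With group means subtracted, r was 0.909 (exact permutation within groups, p = 0.00154 over 1296 arrangements, adjusted 0.0154). All 12 animals deviated from their group mean in the same direction in both genes. The largest deviations on the log2 scale were -1.66 in Abcg1 and -0.43 in Mylip for PR-C animal 25, -1.38 and -0.58 for PC-C animal 27, and 1.24 and 0.28 for PR-C animal 17. The slope was 0.31 log2 units of Mylip per log2 unit of Abcg1 (standard error 0.05). In 3 of the 4 control groups the animals had the same order in both genes, the exception being PR-C-C.

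The relation was also computed within parts of the control animals. It was 0.929 in F1 (exact permutation p = 0.0125, n = 6) and 0.702 in F2 (exact permutation p = 0.129, n = 6). It was 0.826 in the PC arm (exact permutation p = 0.0389, n = 6) and 0.860 in the PR arm (exact permutation p = 0.0181, n = 6), and 0.806 in males (exact permutation p = 0.0094, n = 9). The values of the parts are not adjusted. Among the 7 control libraries on the larger side of the division r was 0.924 (exact permutation p = 0.00357), and the other side holds 5 control animals, too few for a value. Neither gene followed the reads per library on this diet (r = -0.15 for Abcg1 and -0.03 for Mylip, permutation p = 0.639 and 0.922).

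On HFD the same relation did not pass the test. Over 11 animals r was 0.410 (two-sided permutation p = 0.208, adjusted 0.347) and rho was 0.336 (permutation p = 0.313, adjusted 0.522). Without PC-H animal 34 and PR-H animal 16, the farthest in Abcg1, r was 0.608 (exact permutation p = 0.0849, n = 9). With group means subtracted it was 0.547 (exact permutation within groups, p = 0.116 over 432 arrangements, adjusted 0.440), with a slope of 0.26 (standard error 0.16). Of the 11 animals, 8 deviated in the same direction in both genes, and in 2 of the 4 groups the order of animals was the same, 1 of them PC-C-H with 2 animals. Over 12 HFD animals with animal 51, r was 0.062. Within parts of the HFD animals r was 0.219 in F1 (exact permutation p = 0.775, n = 6), 0.175 in the PR arm (exact permutation p = 0.753, n = 6) and -0.236 in males (exact permutation p = 0.567, n = 8), who do not include animal 34. The range of both genes on HFD was narrower than on control chow, and the difference of the relation between the diets was not tested.

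**Figure D4:**
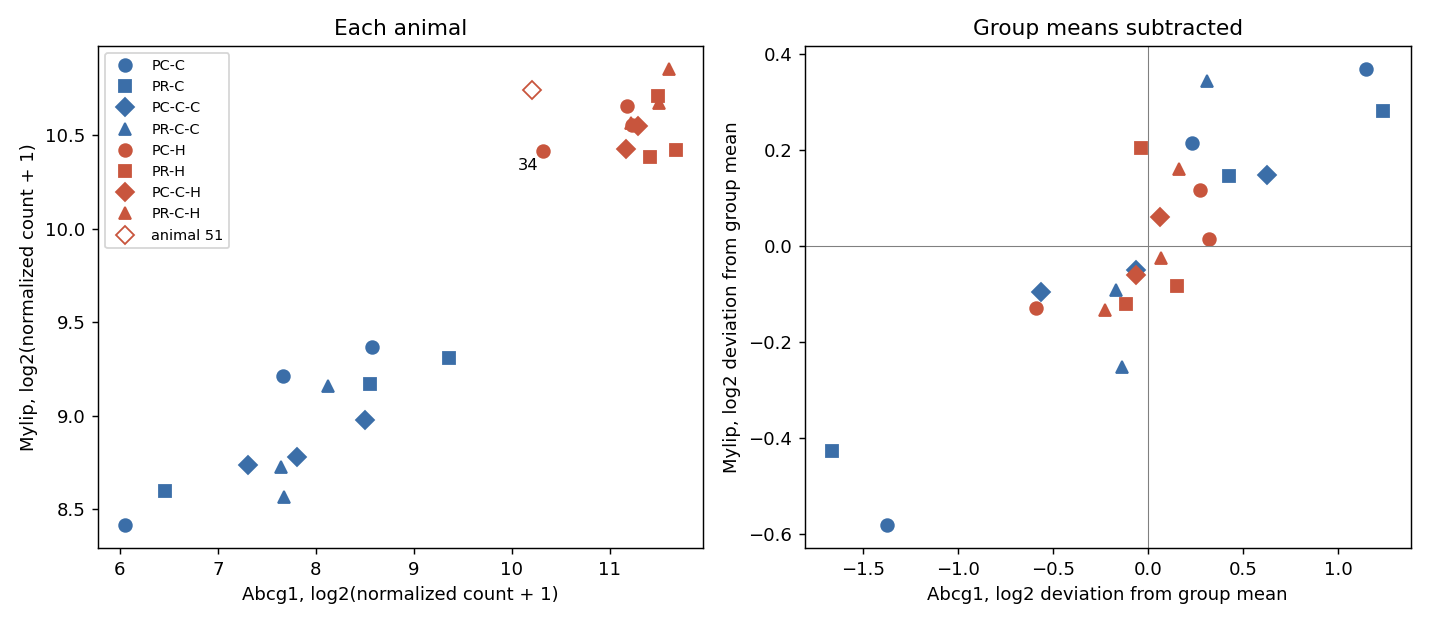
Left, Mylip against Abcg1 as log2(normalized count + 1) in each animal, in blue for control chow and red for HFD, with the group given by the marker and PC-H animal 34 labelled. Right, the same values of the 23 animals with group means subtracted; all 12 control animals and 8 of 11 HFD animals fall in the lower left or upper right field.

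Markers of blood-derived cells set animal 34 apart from the other HFD animals. The macrophage marker Siglec1 had 156 normalized counts in that animal and 0 to 28.5 in the other 10 HFD animals. The B cell genes Pou2af1 and Fcmr had 247 and 288, against 0 to 11.4 and 9.08 to 69.1. On control chow these 3 genes reached at most 16.11, 9.30 and 42.6. All 3 names came from genes that the study lists as changed between PC-C and PC-H, and animal 34 is in PC-H. That it stood apart in them is thus not independent. Only 1 of 13 macrophage and 2 of 12 lymphocyte symbols could be paired, and their summed level over HFD animals ranged from 0 to 156 and from 16.8 to 535. Olfml2b was lowest of the HFD animals in animal 34, with 949 against 1195 to 3474. Over the HFD animals with animal 34, r of Abcg1 was -0.71 with Siglec1, -0.74 with Pou2af1 and -0.80 with Fcmr. Animal 34 was the highest of them in all 3 genes and the lowest in Abcg1. The values of r without it were not computed, so no relation over the other HFD animals is shown. For Mylip it was -0.20, -0.53 and -0.31. On control chow these values were -0.019, 0.41 and -0.026 for Abcg1, and -0.12, 0.24 and -0.43 for Mylip. The part of such cells in the Abcg1 level of animal 34 was not tested. Without animal 34 the HFD animals had 2292 to 3268 normalized counts of Abcg1, and r with Mylip was 0.253.

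To place the relation among all genes, the genes most like each member were taken by Pearson's r over the 23 animals, a likeness that holds the diet difference which chose the members. Nearest to Abcg1 were Mylip (r = 0.972), Srebf1 (0.939), Ppp1r2 (0.870), ENSCPOG00000009387 (0.845) and Scd1 (0.828). Nearest to Mylip were Abcg1, Srebf1 (0.947), Ppp1r2 (0.869), ENSCPOG00000008897 (0.866) and Scd1 (0.866). Ppp1r2 encodes an inhibitor subunit of protein phosphatase 1, and 2 of the identifiers have no name paired here. With group means subtracted, which removes diet, each member was still the nearest of 13223 genes to the other (r = 0.872). By the same measure Srebf1 was 177th for Abcg1 (0.530) and 65th for Mylip (0.579), and Scd1 was 4490th (0.0816) and 1955th (0.238). Within control chow alone Mylip was 2nd of 13220 genes for Abcg1 and Abcg1 was 4th for Mylip, whereas on HFD they were 3133rd and 532nd of 13221. The ranks are a description over animals that share libraries and depth.

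**Figure D5:**
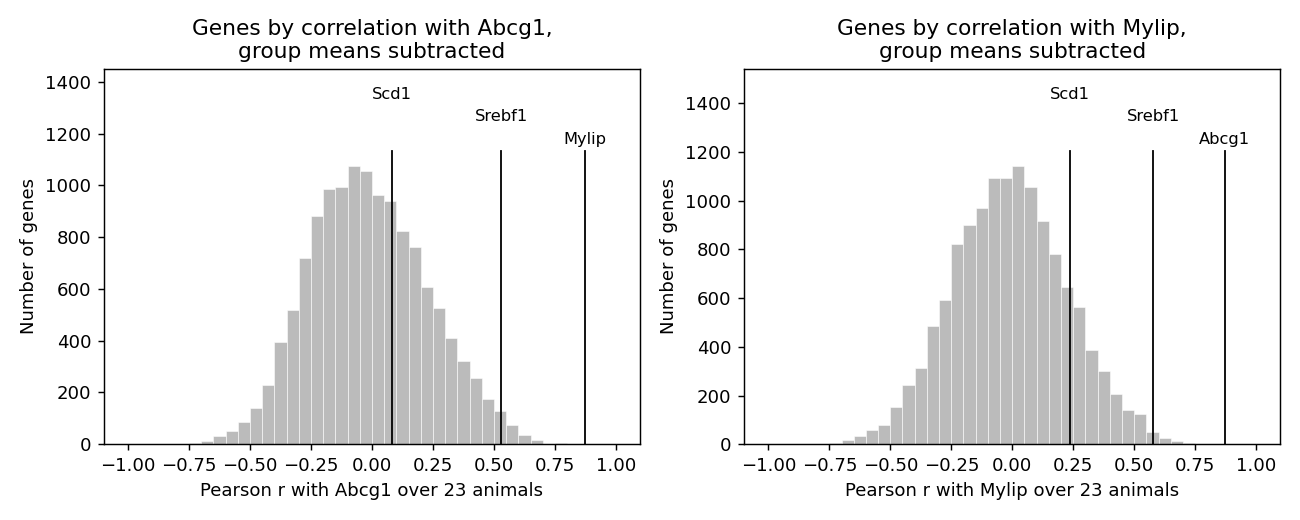
Number of genes by Pearson's r with Abcg1 (left) and Mylip (right) over 23 animals after group means were subtracted, in steps of 0.05, with the LXR targets of known name marked by lines. Each member stands at 0.872, the highest value for the other, while Srebf1 lies at 0.530 and 0.579 and Scd1 at 0.0816 and 0.238.

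Of 19 LXR target symbols, 4 could be paired with an identifier, namely Abcg1, Mylip, Srebf1 and Scd1, all by the study's own PC-C against PC-H list, so their direction with diet is not independent. Srebf1 ranged from 21.2 to 227 normalized counts on control chow (median 73.7) and from 427 to 1202 on HFD (median 724), a log2 difference of 3.17 (standard error 0.28). Scd1 ranged from 149 to 623 (median 295) and from 579 to 1584 (median 1118), a difference of 1.84 (standard error 0.21), and its diets overlapped. In size of response Srebf1 was thus near Abcg1, and Scd1 near Mylip. Their residual SDs on the log2 scale were 0.744 and 0.568, both above that of Mylip. Neither was differentially expressed in any of the 6 factorial contrasts (limma, adjusted p of at least 0.416).

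Within a diet the relation of the members with Srebf1 and Scd1 was weaker than their own on control chow, though that difference was not tested. On control chow Srebf1 had r = 0.549 with Abcg1 (permutation p = 0.0636, adjusted 0.159) and 0.581 with Mylip (permutation p = 0.0411, adjusted 0.137). Without the 2 animals farthest from the median of Abcg1, PC-C 27 and PR-C 17, the first was 0.278. Without the 2 farthest from the median of Mylip, PC-C 28 and PC-C 27, the second was 0.0689. On HFD they were 0.644 (permutation p = 0.0176, adjusted 0.0882) and 0.435 (permutation p = 0.181, adjusted 0.347). For Scd1 the 4 values lay between -0.17 and 0.26. Of the 10 relations, that of Abcg1 with Mylip on control chow was the one that passed the adjusted threshold. Of the other lists of cholesterol genes, 1 of 15 symbols for sterol efflux (Abcg1), 1 of 12 for the LDL receptor family (Mylip) and 0 of 24 for sterol synthesis could be paired, so the rest of these pathways is not analysed here.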

How the data were processed

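PolyA RNA of 24 carotid endothelial flushes was sequenced. According to the study's methods and the submitters' processing notes, reads were checked with FastQC, trimmed with Trimmomatic, aligned with STAR and analysed with DESeq2. Versions, genome build, annotation and the counting program are not given in the sources used here. The signal values deposited by the authors are gene counts after DESeq2 scaling, in which each library's reads are divided by its own size factor. This was tested on the values: 100% are whole multiples of their library's step (tolerance 1e-06), and size factors computed again from the recovered reads differed by at most 4.9e-15. All columns were used.

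A count model had been planned only for counts, so limma 3.58.1 (R 4.3.3) with an intensity trend was run on log2(normalized count + 1) for the 13224 genes whose mean over 23 animals reached 10, with 8 group means in 1 model and Benjamini-Hochberg adjustment (threshold 0.05). Relations and spread were tested with 100000 permutations, or exactly below 10 animals. Counts of the closest pair within a group gave a chi-square 29.7 times its degrees of freedom, far above counting error, and none were merged. The reads carry no molecular identifiers, so errors from read counts cover counting only. The alternatives were DESeq2 1.42.0 and edgeR 4.0.16 on recovered reads, TMM, pseudocounts of 0.1 and 10, no filter, 24 animals, sex, a term for the division of 6 libraries, and each animal left out.

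Identifiers were paired with names for 147 genes, through the readable part of the study's PC-C against PC-H list. The reference table paired none of them, and sequences and positions are not given. The study's columns of fold changes were not used. The members, gene lists and tests were chosen with earlier results of these data known. The genes named are the members, paired genes of the lists, and the 5 nearest to each member by r over 23 animals.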

Additional observations from a re-analysis of the deposited data

Results flagged for a closer look

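PC-C-H animal 51 belongs to none of the comparisons, since the study's list of animals does not hold it, and both genes were above the control level in it. Abcg1 had 1181 normalized counts in animal 51, where the highest control animal had 658 and the lowest HFD animal 1277. Mylip had 1711 in animal 51, where the highest control animal had 659, and the value lay within the HFD range of 1336 to 1852. The library differed from the other 2 of its group by a chi-square of 992 and 1006 per degree of freedom, against at most 218 between any other animals of a group. It also stood apart in cell markers, with 268 normalized counts of Siglec1 (0 to 156 in the 11 HFD animals used), 3856 of Meox2 (523 to 1347), 636 of Tm4sf18 (121 to 375) and 82.9 of Scx (888 to 2428). The part of cell makeup or library quality in its Abcg1 and Mylip values was not tested.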

How the results depend on the processing

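Of 384 alternative values of the 12 tested effects of ration, generation and their interactions on Abcg1 and Mylip, 0 had an adjusted p under 0.05 (lowest 0.340) and 23 changed sign. The Abcg1 generation difference was -0.0864 with DESeq2, -0.0844 with edgeR and -0.26 with the division term, and its diet by generation effect was -0.11 with 24 animals. The division term gave 4.47 for the Abcg1 diet response from PR-C-C to PR-C-H and -1.16 for PR-C to PR-C-C. Among the animals used, PC-C-C alone had libraries on both sides of the division. All values and counts with this term thus rest on animal 52 against animals 54 and 55. With each animal left out in turn, Abcg1 ranged from 0.19 to 0.57 for ration, -0.99 to -0.23 for ration by generation, -0.12 to 0.24 for generation, -0.32 to 0.44 for diet by ration, -0.25 to 0.47 for diet by generation, -0.33 to 1.19 for the 3-way interaction, 2.56 to 4.01 for F1 PR diet, 0.0063 to 1.53 from PC-C to PR-C and -1.15 to 0.30 from PR-C to PR-C-C. Mylip ranged from -0.0266 to 0.10 for ration, -0.0054 to 0.25 for ration by generation, -0.0269 to 0.23 for diet by ration, -0.0022 to 0.50 for the 3-way interaction, 1.25 to 1.73 for F1 PC diet, -0.26 to 0.24 from PC-C to PR-C and -0.46 to 0.0194 from PC-C to PC-C-C. The extremes were mostly those without PC-C 27, PC-C 28, PR-C 17 or PR-C 25. The Abcg1 difference from PC-H to PR-H ranged from 0.32 to 0.77. The excess of the Abcg1 over the Mylip response in F1 PR ranged from 1.30 to 2.39. The spread of Abcg1, HFD minus control, ranged from -0.51 to -0.30 (adjusted p = 0.0419 without PC-H 34, permutation). Abcg1 minus Mylip ranged from 0.28 to 0.43 on control chow (adjusted p = 0.0419 without PC-H 34 and 0.0333 without PR-C-C 58, permutation) and from -0.00068 to 0.0998 on HFD. The control chow test holds no HFD animal, so without PC-H 34 only its adjustment over the 4 tests changed. The relation on control chow was 0.767 to 0.882 with each animal left out (adjusted p = 0.0017 to 0.0408, permutation), 0.702 in F2 alone and 0.718 without PC-C 27 and PR-C 25, which was added after seeing the data. On HFD it was 0.253 to 0.593 with each animal left out, 0.062 with animal 51 and -0.236 in males alone. The causes were not tested.

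DESeq2 called 126 genes for ration, 707 for generation, 13 for ration by generation, 11 for diet by ration, 430 for diet by generation and 8 for the 3-way interaction. Genes called for generation were 20 with edgeR, 72 with no filter, 35 with 24 animals, 2 with sex and 0 with the division term. For diet by generation they were 89 with edgeR, 0 with 24 animals and 0 with the division term, and for ration 1 with no filter. With each animal left out they ranged from 0 to 859 for generation, 1 to 454 for diet by generation, 0 to 2 for ration, 0 to 1 for diet by ration and 0 to 1 for the 3-way interaction, with the highest counts without PC-H 21 and PC-C-C 52. TMM moved the median of all genes in a library by at most 0.06. No paired analysis was possible because the numbers name animals and no number is shared between groups. Depth limits neither gene, whose lowest read counts were 68 and 238, as much as the spread between 2 or 3 animals a group does.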
